A study of Caenorhabditis elegans with 4 samples.

Results

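The central part of chromosome V of Caenorhabditis elegans held 769 of the 7964 regions in which the transcription factor UNC-62 was found bound in embryos. Members were taken by position alone, as regions of the series list on V whose midpoint lay from 5231038 to 15693114 bp on WormBase WS220, a stretch of 10.46 Mb in the middle of the chromosome. The remaining 380 regions of V lay on its arms. All 4 samples came from hermaphrodite embryos of the strain OP600, raised at 20 °C and fixed with 2% formaldehyde, in an unc119(ed3) background. The strain carries the transgene wgIs600, in which unc-62 is fused to TY1, EGFP and FLAG tags, together with a copy of unc119. There were 2 ChIP replicates, precipitated with antibodies against GFP, and 2 Input replicates of unprecipitated chromatin, and both groups carry the transgene, which was introduced by bombardment and outcrossed 3 times. The protein mapped is therefore the tagged copy expressed from the transgene, in whole embryos with all their cell types mixed. Only region lists of the ChIP samples were analysed here, 1 for each replicate and 1 for the whole series, and no list of the Input samples enters any value.

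UNC-62 is the worm member of the MEIS/Homothorax class of homeodomain proteins. Proteins of this class bind DNA together with PBC class homeodomain proteins and with Hox proteins, and in the worm unc-62 is needed for embryonic patterning, for cell migration and in the intestine. The autosomes of this species differ along their length. Their centres recombine rarely and hold many of the conserved and essential genes, whereas the arms recombine more and hold more repeats and more members of rapidly expanding gene families, of which chromosome V carries many, chemoreceptor families among them.

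The centre of V held called regions more densely than its arms, and in each replicate list the order was the same. In the replicate 1 list it held 755 regions, or 72.2 per Mb against 38.3 per Mb on the arms, a ratio of 1.89. In the replicate 2 list it held 281 regions, or 26.9 per Mb against 12.1 per Mb, a ratio of 2.23. In the series list the ratio was 2.02. The left arm, with 38.0 series regions per Mb, and the right arm, with 34.7 per Mb, were each below the centre. Counted by base pairs covered, 2.72% of the centre and 1.44% of the arms lay inside series regions, a ratio of 1.89. The 150593 bp covered on the arms include a region of 13463 bp, the widest of the series list. The ratio without it was not computed. With 2 replicates and no list of controls these are descriptions of the lists, and the difference from the arms was not tested.

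Set beside the centres of the other chromosomes (the middle 50% of their length), the centre of V had the fewest regions per Mb in all 3 lists. The other autosomal centres together held 103.2 series regions per Mb, and single values ran from 83.1 per Mb on IV to 119.7 per Mb on III, with 90.4 per Mb in the centre of X. In the replicate 1 list the next lowest centre was that of IV with 83.3 per Mb, and in the replicate 2 list it was again IV with 35.5 per Mb. The ratio of the V centre to the other autosomal centres was 0.717 in replicate 1 and 0.611 in replicate 2. Whether V differs from the other centres beyond the spread between samples was not tested.

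Within the centre the regions were unevenly spread. It was divided from its left end into 20 windows of 500 kb and a last one of 462077 bp. The full windows held 17 to 60 series regions, with a median of 39. The 3 most populated were window 14, from 11731038 to 12231037, with 60 regions, window 16, from 12731038 to 13231037, with 51, and window 3, from 6231038 to 6731037, with 46. The least populated full window was window 5, from 7231038 to 7731037, with 17 regions, followed by windows 8 and 11 with 28 each. The last, shorter window at the right end held 12.

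**Figure D1:**
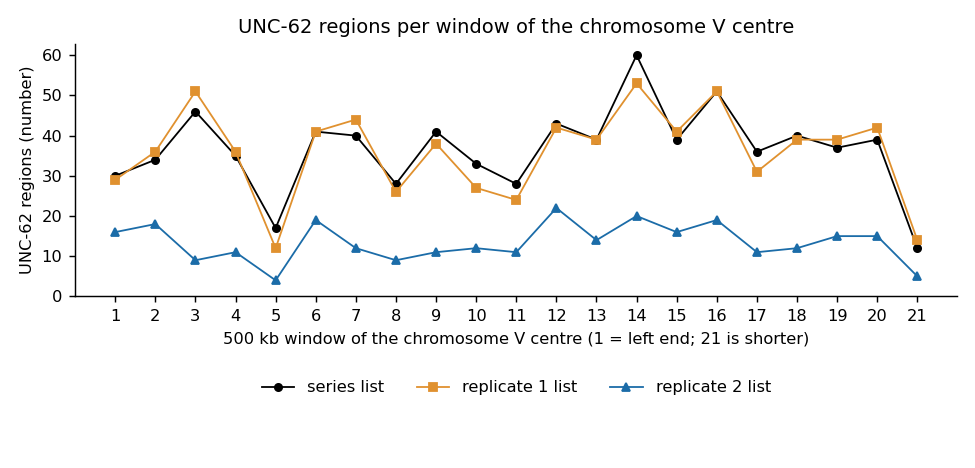
Number of UNC-62 regions (vertical axis) in each window of the chromosome V centre, numbered from its left end (horizontal axis), for the series list (circles), replicate 1 (squares) and replicate 2 (triangles). Replicate 1 follows the series list closely, with the lowest full window, window 5, in common to all 3 lists, while replicate 2 runs lower and does not share the peak of window 3.

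Replicate 1 showed a similar order of windows to the series list, with a Spearman rho of 0.92 over the 20 full windows, and replicate 2 followed it less closely, with a rho of 0.49. These values are descriptions. The lists are not independent, and neighbouring windows share the chromosome. Window 5 was the lowest full window in each replicate too, with 12 regions in replicate 1 and 4 in replicate 2. The replicates parted most clearly in window 3, where replicate 1 listed 51 regions and replicate 2 listed 9. Only 8 of the 46 series regions there (17.4%) were found in both replicates. In windows 1 and 2, at the left end of the centre, 16 of 30 (53.3%) and 18 of 34 (52.9%) were.

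Distances between neighbouring members varied widely. The median distance between neighbouring midpoints was 4982 bp, with quartiles of 1655 and 16538 bp, and it ranged from 400 bp to 273518 bp. Of the 769 regions, 360 had another member within 2 kb (46.8%, exact 95% interval 43.2 to 50.4%), 153 had one within 1 kb and 549 within 5 kb. Intervals of shares here are Clopper-Pearson intervals, which count regions as independent and cover counting error only. The smallest gap from the end of a member to the start of the next was 202 bp. In replicate 1 the median distance was 5256 bp. In replicate 2, which lists fewer regions, it was 16780 bp. Distances and groups are given for the centre only, so whether its spacing differs from other parts is not shown.

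**Figure D2:**
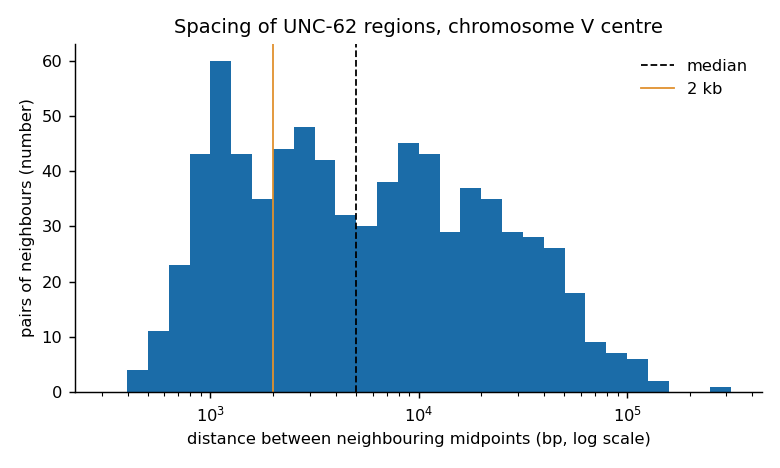
Distances between the midpoints of neighbouring regions in the chromosome V centre (horizontal axis, bp on a log scale) and the number of neighbour pairs in each bin (vertical axis). The dashed line marks the median of 4982 bp and the solid line 2 kb, and the distances spread over nearly the whole range from 400 bp to 273518 bp with no empty middle.

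Chained at a distance of 2 kb, the members formed 409 lone regions and 141 groups. Of the groups, 97 held 2 regions and 21 held 4 or more, the latter with 97 regions in all. The most populous group, from 11531164 to 11537406, held 7 regions in 6243 bp. It contained the member that ranked 11 by strength, 11531757 to 11532544, and around it weaker regions, of which 4 were found in replicate 1 only and 2 in neither replicate. In the group from 11953127 to 11961291, 6 regions covered 49.0% of 8165 bp, and replicates 1 and 2 each listed 5 regions there. Another 6 regions lay from 11917625 to 11924895, and 6 more from 13016644 to 13022495, of which replicate 1 held all and replicate 2 held 1. The groups near 11.9 Mb belong to a denser neighbourhood. From 11917625 to 11962857, 45.2 kb inside window 14, there were 18 regions covering 18.8% of the sequence, of which 9 were found in both replicates, 6 in replicate 1 only and 3 in neither. This neighbourhood was chosen after its values were seen.

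A few stretches were long and empty. There were 9 gaps of over 100 kb between neighbouring members, with a summed length of 1.20 Mb. The longest ran for 273.2 kb between 15191272 and 15464459, near the right end of the centre, and held 1 region of replicate 1 and none of replicate 2. The next 2, of 147.1 kb from 7580641 to 7727746 and of 131.3 kb from 8964320 to 9095615, held none in either replicate list. The empty stretch that ended at 7727746 lay a short way left of the strongest region of the whole centre.

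The strongest region ran from 7745726 to 7746577, was 852 bp wide and had a value of 1.13e-111 in the series list. The values attached to regions are the authors' own, read here as q-values, so a smaller value is a stronger call, although sequencing depth and enrichment both enter it. In replicate 1 it had 1.9e-85 and in replicate 2 it had 7.42e-37. A group of 4 regions extended from it to 7750088, and of the other 3 only 7747885 to 7748540 was found in both replicates, with values of 5.14e-07 and 9.27e-06. The strongest region thus had weaker ones beside it.

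The next in strength lay to its right in the same window, from 7822497 to 7823152 (656 bp). It had a series value of 6.82e-108, with 3.11e-76 in replicate 1 and 1.35e-44 in replicate 2, where it was the strongest region of the centre. It also stood in a group of 4, which ended in a wide region from 7825593 to 7827099 (1507 bp), with values of 6.15e-28 in replicate 1 and 4.83e-09 in replicate 2. Both of the strongest regions thus lay in window 6, beside the least populated full window.

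The regions in places 3 and 4 were wide and were each overlapped by 2 separate regions in replicate 1, of which the stronger gives the value. The region from 9730735 to 9732264 (1530 bp) had 5.51e-75 in replicate 1 and 4.61e-24 in replicate 2. The region from 9343019 to 9344704 (1686 bp) had 4.45e-62 and 2.3e-24. In replicate 2 a single region lay at each.

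The following 6 were of 650 to 988 bp. The region from 15070957 to 15071944 had values of 3.31e-55 in replicate 1 and 1.05e-34 in replicate 2, and that from 11307583 to 11308335 had 1.78e-57 and 5.74e-28. The region from 8000851 to 8001500, with 1.35e-43 and 4.74e-26, was the only one of the first 10 without another member within 5 kb, its nearest neighbour being 17292 bp away. The remaining 3 of the first 10 lay right of the middle. The region from 14848520 to 14849188 had 3.32e-45 in replicate 1 and 1.41e-26 in replicate 2, that from 14696728 to 14697411 had 2.99e-36 and 6.01e-26, and that from 12896825 to 12897793 had 7.68e-36 and 1.13e-21. In each of these 10 the value was smaller in replicate 1.

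The regions in places 11 to 20 were also found in both replicates, with values from 2.25e-43 to 8.51e-30 in replicate 1 and from 7.18e-23 to 1.67e-11 in replicate 2. Besides the region already given at 11531757, they began at 6879274, 5991318, 8936079, 10727598, 10466491, 6227119, 13085821, 12465274 and 14576732. They were thus scattered over the whole centre and not gathered in 1 place. Among the first 20 the median width was 746 bp, with a range of 477 to 1686 bp, and 13 had another member within 2 kb. The annotation at hand is on another genome build, so no gene was attached to any of these regions.

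The share of members among the strongest regions was near that of the whole list. The first member took place 29 of the series list. The centre held 6 of the strongest 100 regions and 9.66% of all regions in the list, a difference that was not tested. Of its 769 members, 78 were among the strongest 10% of the list (10.1%, exact 95% interval 8.10 to 12.5%), against 9.99% of all series regions by construction. On the arms of V the share was 9.47% and in the other autosomal centres 10.6%, so all lie within the interval of the V centre. The region of V with a listed value of 0 was on an arm and is no member.

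Widths were close to those elsewhere. The median member was 313 bp wide, with quartiles of 225 and 463 bp, against 288 bp on the arms of V, 309 bp in the other autosomal centres and 340 bp in the centre of X. In replicate 1 the median width was 281 bp in the V centre and 249.5 bp on the arms of V. In replicate 2 it was 333 bp in the V centre and 335.5 bp on the arms, so the order was not shared. The replicate lists were held to unlike limits of value, so their widths are not set against each other. The widest member was 1962 bp (14505588 to 14507549), followed by 1814 bp (9273464 to 9275277) and 1760 bp (10715746 to 10717505), and all 3 were found in both replicates. There were 17 members of 1 kb or more, every one of them found in both. At the other extreme 10 members were under 20 bp wide, the narrowest 2 bp, and of these 8 were found in neither replicate and 2 in replicate 1 only. Over all series regions, those in replicate 1 only reached 1468 bp and those in replicate 2 only 3149 bp. The narrowest found in both was 126 bp wide there. Shares of support by width were not computed for the whole list.

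**Figure D3:**
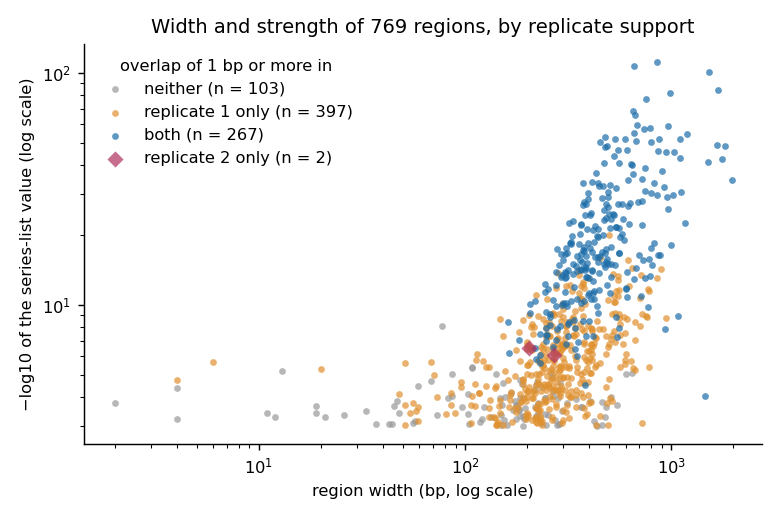
Width (horizontal axis, bp on a log scale) and strength (vertical axis, −log10 of the series-list value on a log scale) of the 769 regions, with colour showing which replicate lists overlapped them by at least 1 bp. Regions found in both replicates fill the upper right, those found in neither lie at the bottom and reach the narrowest widths, and 1 wide region of 1451 bp stands low at the right.

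Width and strength went together, with a Spearman rho of 0.69 between width and the order of strength over the 769 members. The correlation is given as a description over the regions of 1 list.

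Support by the replicates was set out next. Of the 769 members, 267 overlapped a region in both replicates (34.7%, exact 95% interval 31.4 to 38.2%), where 36.7% of all series regions did. A further 397 were found in replicate 1 only (51.6%, interval 48.0 to 55.2%), 2 in replicate 2 only (0.26%) and 103 in neither (13.4%, interval 11.1 to 16.0%). Over all series regions these 3 shares were 47.9%, 1.24% and 14.2%. The share found in both was thus near that of the whole list. The other classes depended on the limits of the lists. With all 3 held to values below 0.001, 35.5% of members were in replicate 1 only and 29.5% in neither. The share found in both replicates, with the lists as given, was 29.7% on the arms of V (interval 25.2 to 34.6%). It was 39.9% in the other autosomal centres (interval 38.2 to 41.6%). The differences were not tested, and neighbouring regions are not independent, which makes these intervals too narrow.

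Seen from the replicate lists, the 2 directions were unlike. Replicate 2 placed 281 regions in the centre, and 272 of these met a region of replicate 1 (96.8%, exact 95% interval 94.0 to 98.5%). Replicate 1 placed 755 there, and 268 met one of replicate 2 (35.5%, interval 32.1 to 39.0%). The lists were held to unlike limits, with values up to 0.00997 in replicate 1 and up to 0.000922 in replicate 2 among these regions. The series list kept a region at 671 of the 755 places listed by replicate 1 (88.9%) and at 276 of the 281 listed by replicate 2 (98.2%). These shares were not computed over the whole replicate lists, so they are not read as particular to the centre.

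Support fell steadily with strength. The members were ordered by the series value and divided into 5 steps of 153 or 154 regions. The series list covers the same ChIP samples as the replicate lists, so strength and support are not independent. The steps are therefore a description and no separate check of the regions. They were not counted over the whole series list, so the fall in support is no trait shown for the centre alone. In the strongest step 151 of 154 were found in both replicates (98.1%), in the next 85 of 154 (55.2%), in the middle step 29 of 153 (19.0%), in step 4 only 2 of 154 and in the weakest none. Regions found in neither replicate showed the reverse, with 0, 0, 1, 33 and 69 in the 5 steps. Every member stronger than the one in place 107 was in both replicates. Median width fell alongside, from 527 bp in the strongest step to 198 bp in the weakest.

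**Figure D4:**
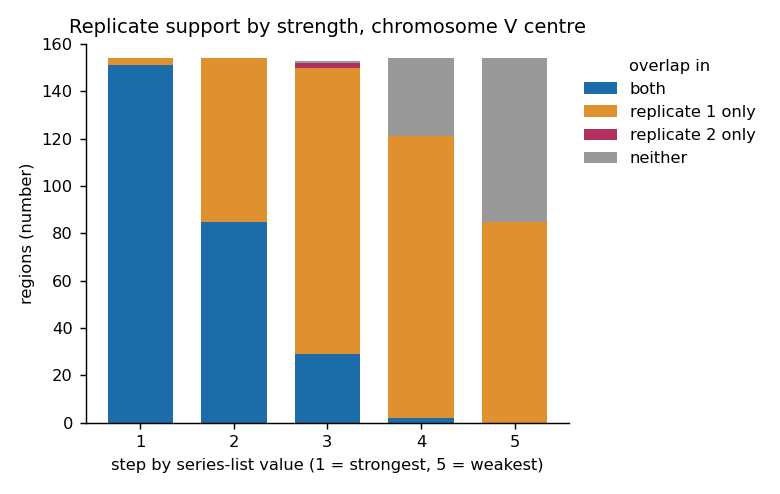
Number of regions (vertical axis) in 5 steps of strength by the series-list value (horizontal axis, 1 the strongest), divided by which replicate lists overlapped them. Support by both replicates goes from 151 of 154 regions in step 1 to 0 in step 5, and regions found in neither appear almost only in steps 4 and 5, with 33 and 69. The lists cover the same ChIP samples, so strength and support are not independent.

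The median series value was 1.88e-17 for members found in both replicates, 3.66e-06 for those in replicate 1 only and 0.000236 for those in neither. Over all series regions these medians were close, at 1.21e-17, 3.39e-06 and 0.000233. Median widths of the members were 442, 281 and 182 bp in the same order, against 435, 275 and 165 bp over all series regions. Between the first 2 of these classes the share with another member within 2 kb was alike, 49.4% against 48.1%, and among regions found in neither it was 35.9% (37 of 103). The regions found in neither lay a median of 2825 bp from the nearest replicate region, 12 of them within 500 bp and 44 within 2 kb.

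For the 267 members found in both replicates, the order of strength was much the same in each. The values of the replicates had a Spearman rho of 0.79, against 0.78 for 113 such regions on the arms of V. All points come from the same pair of libraries and were kept only where both lists held a region, so the rho is given as a description. The value was smaller in replicate 1 in 241 of the 267 (90.3%, exact 95% interval 86.1 to 93.5%). The median was 9.07e-12 in replicate 1 and 3.91e-06 in replicate 2. Depth and enrichment both enter these values, so the difference does not measure binding.

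**Figure D5:**
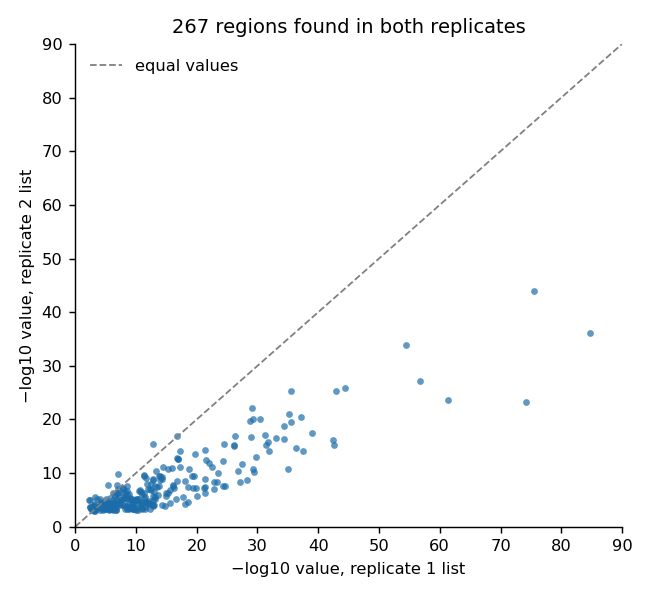
Values of the 267 regions found in both replicates, as −log10 of the value in the replicate 1 list (horizontal axis) and in the replicate 2 list (vertical axis), with a dashed line where they are equal. In 241 of the 267 the replicate 1 value was the smaller, which puts the point below the line, and the order of strength is largely shared (rho 0.79).

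Among members found in 1 replicate or none, the strongest ones were of moderate strength. The strongest found in replicate 1 only was 13156887 to 13157386 (500 bp), with values of 8.86e-21 in the series list and 2.88e-14 in replicate 1. It was the strongest of all 3813 such regions in the genome. The next were 6545007 to 6545459 (1.28e-13 in replicate 1), 14830528 to 14831143 (1.24e-12), 12895814 to 12896456 (3.17e-11) and 8796342 to 8797231 (1.39e-10). That at 12895814 stood next to the member in place 10, and 425 bp from a replicate 2 region. The distances from the other 4 to a replicate 2 region were 2295 bp or more.

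Only 2 members were found in replicate 2 alone, from 15578403 to 15578607, with a replicate 2 value of 0.000119, and from 7834290 to 7834558, with 3.96e-05. Neither had a replicate 1 region within 7 kb. Of those found in neither list, the strongest was 11962781 to 11962857, only 77 bp wide, with a series value of 8.23e-09, again the strongest of its class in the genome (1129 regions). It lay at the right edge of the dense neighbourhood of window 14. The others of the first 5, with series values of 3.9e-06 to 8.06e-06, were 14221042 to 14221149, 10205060 to 10205167, 8189358 to 8189370 (13 bp) and 11532957 to 11533598 (642 bp), the last inside the group of 7 regions.

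The bounds of the centre fell in thinly occupied places. Just outside the lower bound was 5214421 to 5214720 and just inside it 5269075 to 5269241, both found in replicate 1 only, 16468 and 38120 bp from the bound. At the upper bound the last member was 15663960 to 15664419, found in both replicates, and the first region beyond it was 15723823 to 15723829, a region of 7 bp found in neither. Left of the middle of the centre there were 354 members and right of it 415.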

How the data were processed

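ChIP-seq region lists of 2 UNC-62 ChIP replicates and 1 list of the whole series were used. The authors called regions with PeakSeq, as each line of the deposited files states, on WormBase WS220, per the file headers. Not given in the sources used here are the caller's version, the aligner, the filters, the making of the series list and whether replicates were separate cultures. The deposited value of each region carries no name and was read as a q-value, a p-value corrected for the number of regions. This is an assumption. The deposited region lists give no read counts, so depth is unknown.

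Here, midpoints, widths, distances and overlaps (at least 1 bp, strongest partner) were computed with Python 3.11.15, pandas 2.3.3 and scipy 1.17.1, and the overlap, distance and merging steps were tested on simulated data. The length of V was taken as the highest region end (20916101 bp), so the arms are slightly short. For the other chromosomes the centre is the middle 50% of the length so measured. No test was run, because regions are not replicates. The regions named by rule are the 20 strongest, the 3 widest, the 5 strongest of each class not in both replicates, those at the bounds and the 3 most and least populated windows. The groups, the gaps, the neighbours of the strongest regions and the regions under other observations were picked after their values were seen. The members and rules were chosen with earlier results of these data known. Assignment of genes and the motif counts were not run, as the gene table at hand is on WBcel235, and no sequence was used.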

Additional observations from a re-analysis of the deposited data

How the results depend on the processing

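Of 40 values under alternatives, 20 stayed within the tolerance set for them (the exact interval of a share, 1.5 times a count, for rho 0.005, or for other values the SD of the 2 replicate lists) and 20 moved. Counts, widths, distances and shares have no direction that could change. In the ratio of the centre to the arms in density, the centre stayed above the arms under every alternative. The number of members was 769 in the series list, 755 without replicate 2 and 281 without replicate 1. It was 373 in the stronger 50% of the list, 506 with values below 1e-05 and 515 with neighbours under 2 kb apart merged. The ratio of the centre to the arms in density ranged from 1.83 with the middle 60% to 2.30 in the stronger 50%. Median width rose from 313 to 427 bp in the stronger 50% and to 385.5 bp with values below 1e-05. The median distance was 5256 to 16780 bp with 1 replicate left out, the higher without replicate 1, against 4982 bp. It was 11926 bp in the stronger 50% and 9422 bp with values below 1e-05, over 1.5 times the main value but inside the tolerance, which is wide because the values of the 2 replicate lists lie far apart. The share with a neighbour within 2 kb was 46.8%. It became 19.9% at 1 kb, 71.4% at 5 kb, 51.8% from end to start, and 24.2% to 46.6% with 1 replicate left out, the lower without replicate 1. With 50% reciprocal overlap 29.6% of members were in both replicates, against 34.7%, and 19.0% in neither, against 13.4%. With midpoints within 100 bp these were 30.04% and 17.2%. With all lists below 0.001, which shortens the replicate 1 list, 35.5% were in replicate 1 only, against 51.6%, and 29.5% in neither. Of the members, 5.07% were in the strongest 5% of the list and 19.1% in the strongest 20%, both set by the limit. The rho of the replicate values was 0.81 over 228 regions with 50% reciprocal overlap, against 0.79. The causes were not tested beyond what stricter matching or fewer regions give by construction. No paired analysis was possible because no region list of Input was analysed. The alternatives for genes and motifs were not run, for want of an annotation and genome on WS220.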

Other observations

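Some members were weaker in the series list than in a replicate list that overlapped them. This held for 12 of the 664 members matched in replicate 1 and for 1 of the 269 matched in replicate 2, which was also among the 12. The most unlike was 5284006 to 5285456, 1451 bp wide and near the left end of the centre. It had a series value of 8.73e-05, in place 594 of the 769 members, although its values were 1.78e-14 in replicate 1 and 2.04e-08 in replicate 2. It was the weakest of the 267 members found in both replicates. On the log10 scale the series value exceeded the smaller replicate value by 9.69, which put it in place 11 among all series regions with a match. The cause was not tested.

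A pair of neighbours at the right of the centre was also of this kind. The regions from 15065117 to 15065351 and from 15065562 to 15065705, with series values of 3.73e-06 and 0.000765, both overlapped a replicate 1 region with a value of 2.17e-07. Their midpoints were 400 bp apart, the closest pair in the centre. In the replicate lists the opposite also occurred, where 2 regions of 1 replicate lay under a single member, for 8 members in replicate 1 and 7 in replicate 2.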
